A study of Mus musculus with 27 samples.

Results

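The comparison described here is that of livers of mice fed a high-fat diet with ursolic acid (UR) against livers of mice fed the same high-fat diet without it (HFD), on 6 of the 27 arrays of the series. Male C57BL/6J mice, spelled C56BL/6J in the strain label, arrived at 4 weeks of age, ate a semi-purified diet for 1 week and then 1 of 3 diets for 16 weeks. The UR diet held 20% fat, 1% cholesterol and 0.05% (w/w) ursolic acid, the HFD held 20% fat and 1% cholesterol, and the normal diet (ND) stood beside both. Each group of livers was read on 3 arrays, and each array took RNA pooled from several mice, so that n = 3 counts pools. No source used here gives the mice of each pool, the number of mice differs between the labels and the methods, and p-values therefore measure only the spread between pools, which may be technical. Signals were quantile-normalized over the 9 liver arrays on the log2 scale, and a probe was kept where its detection p-value was under 0.05 on all 3 arrays of a liver group. That left 17518 of 45281 probes (38.7%). Of these, 14897 carry 1 gene symbol and stand for 9784 genes, and each kept probe is reported on its own. Probes were tested with limma, in two-sided tests adjusted over the 17518 probes by the Benjamini-Hochberg method, and a probe is said to rise or fall only where that adjusted p was under 0.05.

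The UR arrays stood apart in brightness before normalization. Total signal was 40602071 to 45514171 on UR arrays, against 34875716 to 36249494 on HFD arrays and 33610124 to 36807245 on ND arrays. The share of probes detected was 38.7% to 40% with UR, against 36.5% to 37.2% with the HFD and 34.2% to 35% with the ND, and neither measure overlapped between UR and HFD, so that array brightness and diet cannot be told apart. Signals of pools of 1 group correlated at 0.996 to 0.998 within UR and 0.996 to 0.997 within HFD, and UR with HFD pools at 0.965 to 0.974. The scaling sets the balance of the changes: the median log2 fold change over all kept probes was -0.07 with quantile normalization and 0.10 with arrays scaled to a common median, a shift of 0.168, and directions that depend on it are marked as such. Liver identity was checked with the markers named on the array. Of these, 8 of 10 hepatocyte markers had a kept probe. The counts were 1 of 6 for adipocytes, 1 of 7 for skeletal muscle, 1 of 5 for the exocrine pancreas and 0 of 5 for the kidney.

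The liver makes most plasma proteins, synthesises cholesterol and converts it to bile acids, oxidises fatty acids in its mitochondria, and inactivates steroids and drugs through cytochrome P450 enzymes and conjugating transferases. It also houses resident macrophages, the Kupffer cells, a sinusoidal endothelium and stellate cells, and in diet-induced fatty liver further macrophages that take up lipid gather there. Ursolic acid is a plant triterpenoid. In bulk tissue, fewer cells of a type and less RNA per cell cannot be told apart, which holds for each marker gene below.

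Of the 17518 kept probes, 3828 rose with UR (21.9%) and 5823 fell (33.2%). The 3 UR arrays lay above the 3 HFD arrays in 25.2% of probes and below them in 39.1%. Large changes were mostly increases: 620 probes rose and 49 fell by more than 2-fold, and 116 of the 620 have no single gene symbol in the annotation used here. The log2 fold change was -0.752 at percentile 1 and 1.54 at percentile 99. Scaled to a common median, 6166 probes rose and 2189 fell, so that the balance of the calls turned round. The filter keeps a probe that any 1 liver group detected, and 941 probes were detected on all 3 UR and 0 HFD arrays, against 459 on all 3 HFD and 0 UR arrays. Among probes detected on all 6 arrays, 2668 rose and 4955 fell. Over the 620 raised probes, the median log2 difference of ND minus HFD was -0.0266 and 585 were within 0.5. Over the 49 probes it was -0.654 and 18 were within 0.5. Few probes differed much between HFD and ND livers: of the 17518, 112 rose and 43 fell by more than 2-fold with the HFD. The share of all kept probes within 0.5 was not computed, so that the 585 cannot be called particular to the raised probes. The HFD arrays enter both the UR minus HFD and the ND minus HFD differences.

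**Figure D1:**
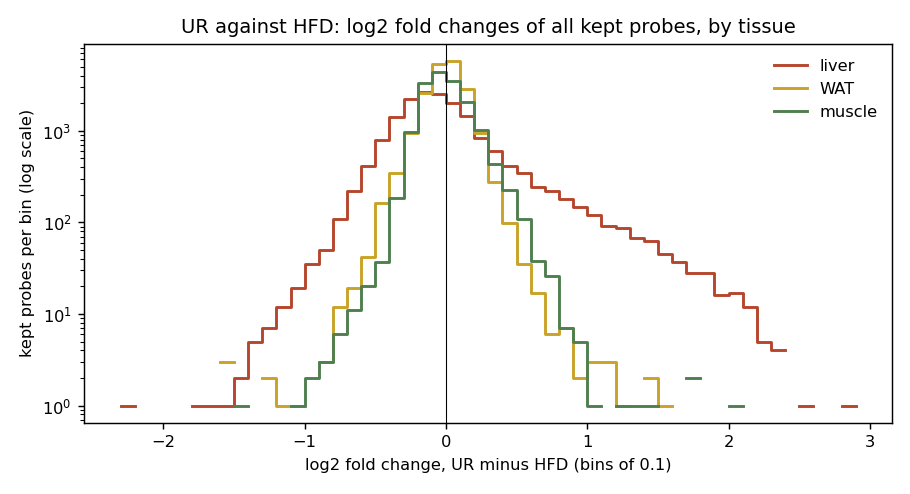
Number of kept probes (log scale) in bins of 0.1 of the log2 fold change of UR minus HFD in liver, white adipose tissue (WAT) and muscle, quantile-normalized within each tissue. The liver curve has a long right shoulder with 620 probes called above 2-fold, against 6 in WAT and 7 in muscle.

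Probes of a single gene often moved apart. Among the 3566 genes with several kept probes, 2898 had a probe that was called, 875 had probes called up and none down, 1458 had probes called down and none up, and 565 (15.8%) had probes called in opposite directions. Over all 9784 genes, 2177 (22.3%) had probes called up and none down, 3553 (36.3%) had probes called down and none up, and 565 (5.77%) had both. With median scaling, 3943 (40.3%) of the 9784 genes had probes called up and none down and 1345 (13.7%) had probes called down and none up, and a list's counts under median scaling stand beside these shares. Opposite calls were rarer in other comparisons of the series: 7 genes (0.176%) with UR in WAT, 61 (1.87%) with UR in muscle and 13 (0.365%) with the HFD against the ND in liver. Fewer genes had any call there. As a share of genes with several probes and any call, opposite calls were 19.5% in the liver with UR. The share was 1.19% in WAT, 4.64% in muscle and 0.961% for the HFD against the ND. The distance between the highest and lowest log2 fold change of a gene's probes had a median of 0.292 in the liver with UR and exceeded 1 in 343 genes, against 1 gene in WAT, 2 genes in muscle and 11 genes for the HFD against the ND. With median scaling the count of genes with opposite calls was 261. For the 271 genes that had a probe up by more than 2-fold and at least 1 further kept probe, the 424 further probes had a median log2 fold change of -0.0275, and 29% of them rose and 26.2% fell. For the 19 genes that had a probe down by more than 2-fold, the 18 further probes had a median of -0.512, and 66.7% fell and 16.7% rose. Which transcript a probe reads was not examined.

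Lyz2, the lysozyme of macrophages, is an example. The first of its 2 kept probes read log2 signals of 9.93, 10.04 and 10.08 in UR livers, against 11.29, 11.63 and 11.56 in HFD livers, and fell 2.79-fold (log2 fold change -1.48, standard error 0.09, adjusted p = 2.33e-08). The second read 9.75, 9.84 and 9.95 in UR livers, against 8.76, 8.66 and 8.69 in HFD livers, and rose 2.21-fold (1.14, standard error 0.07, adjusted p = 4.48e-08). The groups did not overlap on either probe, and both calls held with median scaling. Gjb2, a gap junction protein of hepatocytes, had 3 kept probes, with log2 fold changes of 2.00, 0.68 and -0.66. H2-K1, an MHC class I heavy chain, had 1.69, 0.55 and -0.69. Aass, an enzyme of lysine breakdown, had 0.95 and -1.16, and its other probe, at 0.17, did not pass the test (adjusted p = 0.0627). The chaperone Hspa8 had 1.93 on 1 probe, -0.65 on another and -0.15 on the last, which did not pass (adjusted p = 0.215). Lamp2, a lysosomal membrane protein, had 7 kept probes, of which 4 rose, by 0.25, 0.30, 0.94 and 2.05, 2 fell, by 0.18 and 0.33, and 1 did not pass the test at -0.09 (the probe at -0.18 turned to 0.07 with median scaling, and lost its call without HFD pool 1, at -0.15, or HFD pool 3, at -0.16). Txn1, thioredoxin, rose by 2.00 on 1 probe, while its other probe, detected on 0 UR and 2 HFD arrays, was at least 1.07-fold lower with UR.

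**Figure D2:**
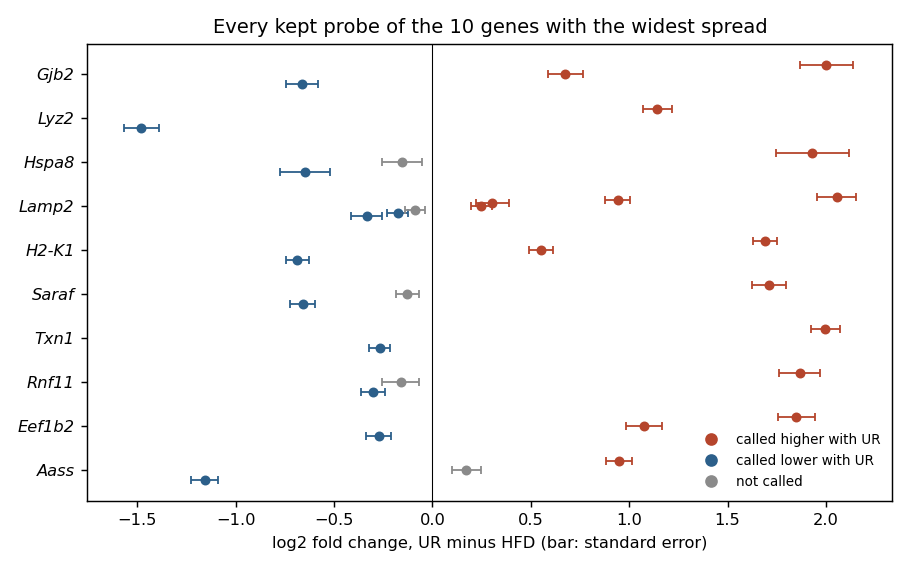
Log2 fold change of UR minus HFD for every kept probe of the 10 genes with the widest distance between a probe called up and a probe called down (bars: standard error). The distance is 2.67 for Gjb2 and 2.10 for Aass, and the lower Txn1 probe was detected on 0 UR arrays, so that its point is no measured fold. In median-scaled data the Lamp2 probe at -0.18 lies at 0.07 and Eef1b2 at -0.27 lies at 0.01, and Rnf11 at -0.30 (-0.02) loses its call.

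The largest increases included enzymes of steroids, a retinol carrier and mitochondrial proteins. Hsd17b6, a dehydrogenase of androgen metabolites, had log2 signals of 11.27, 11.25 and 11.61 in UR livers, against 8.89, 8.71 and 8.86 in HFD livers and 8.01, 7.88 and 8.19 in ND livers, a rise of 5.88-fold with UR (adjusted p = 1.58e-09). Ugt2b34 and Ugt2b1 encode transferases that attach glucuronic acid to steroids and drugs. Ugt2b34 read 10.65, 11.05 and 10.74 with UR, against 8.68, 8.27 and 8.31 with the HFD, and rose 5.27-fold. Ugt2b1 read 11.98, 11.92 and 11.84 with UR, against 9.88, 9.15 and 9.62 with the HFD, and rose 5.15-fold. The UR and HFD arrays did not overlap in any of these. Pgrmc1, a haem-binding membrane protein that partners P450 enzymes, read 12.58, 12.78 and 12.84 in UR livers, against 10.56, 10.39 and 10.42 in HFD livers, and rose 4.86-fold. Rbp4, the plasma carrier of retinol, read 13.85, 13.87 and 13.71 in UR livers, against 11.78, 11.50 and 11.69 in HFD livers, and rose 4.45-fold. Idh2, the mitochondrial isocitrate dehydrogenase, read 11.97, 12.01 and 12.17 with UR, against 9.89, 9.84 and 9.92 with the HFD, and rose 4.49-fold. Of the 15 largest increases, each at least 2.14 on the log2 scale, 11 were in genes with 1 kept probe. The other 4 had further probes with smaller values: Atp5a1, the alpha subunit of the mitochondrial ATP synthase, rose by 2.30 and 0.33, Hao1, the peroxisomal glycolate oxidase, by 2.24 and 0.72, and Slirp, which stabilises mitochondrial messenger RNA, by 2.14 and 0.28 (the second not called without HFD pool 2, at 0.24, or UR pool 1, at 0.18). Rab43, a small GTPase of membrane traffic, rose by 2.20 and 0.39, and its other 2 probes, at 0.12 and 0.18, did not pass the test. Sult2a8, a bile acid sulfotransferase of the mouse, rose by 2.14 and read 12.98, 13.28 and 12.91 with UR, against 11.16, 10.41 and 11.17 with the HFD.

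The 2 largest decreases were in Gpnmb and Lpl, both on the list of lipid-associated macrophage genes described below. Gpnmb, a glycoprotein of such cells, read 9.35, 8.66 and 10.03 in UR livers, against 11.09, 11.90 and 11.72 in HFD livers and 7.48, 7.66 and 7.42 in ND livers, and fell 4.65-fold with UR (standard error 0.27 on the log2 scale, adjusted p = 1.55e-05). The UR pools lay between the ND and HFD pools and differed among themselves by more than 1 log2 unit. Lpl, lipoprotein lipase, read 11.89, 11.76 and 12.05 in UR livers, against 13.28, 13.76 and 13.78 in HFD livers and 11.51, 11.54 and 11.20 in ND livers, and fell 3.26-fold. Ly6d, a surface protein of lymphoid and epithelial cells, fell on both of its probes, by 1.69 and 1.57. Lcn2, the acute-phase protein lipocalin, read 10.82, 10.75 and 10.96 in UR livers, against 11.96, 12.38 and 12.14 in HFD livers and 8.74, 9.35 and 8.50 in ND livers, and fell 2.49-fold. Spon2, a secreted matrix protein, read 11.34, 10.99 and 11.19 in UR livers, against 12.50, 12.87 and 12.35 in HFD livers and 12.83, 12.16 and 12.76 in ND livers, and fell 2.64-fold to a level below both diets. Cdkn1a, the cell cycle inhibitor p21, fell on both probes, by 1.29 and 0.85. Ddc, the decarboxylase of aromatic amino acids, fell by 1.29 on 1 probe and by 0.32 on the other, a call that median scaling removed (-0.03). Of the 15 largest decreases, which lie in 13 genes, 6 were in genes with 1 kept probe.

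MHC class II molecules, which show peptides to helper T cells and are made by macrophages, dendritic cells and B cells, fell together. Of 13 genes of the pathway with a kept probe, 10 fell (76.9%), 1 rose and 2 did not pass the test, against 36.3% of all genes with probes called down and none up, and the counts were the same with median scaling. The median over their 21 probes was -0.618, against -0.0746 over all probes with a symbol. H2-Ab1, a beta chain, fell on all 3 probes, by 1.12, 1.34 and 1.39. The probe at -1.34 read 9.96, 9.80 and 10.11 in UR livers, against 11.14, 11.50 and 11.26 in HFD livers and 10.28, 10.49 and 10.43 in ND livers, so that the UR pools lay below both diets. Cd74, the invariant chain that escorts class II molecules, fell on 3 probes, by 0.98, 0.88 and 0.87. On the first of these it read 11.71, 11.40 and 11.69 with UR, against 12.46, 12.74 and 12.55 with the HFD and 11.58, 11.88 and 11.55 with the ND. H2-Eb1, another beta chain, read 10.42, 10.10 and 10.50 with UR, against 11.31, 11.53 and 11.30 with the HFD, and fell 2.06-fold. The peptide-loading chains H2-DMa, H2-DMb1 and H2-DMb2 also fell, H2-DMa by 1.09 and 0.58, H2-DMb1 by 0.62 and H2-DMb2 by 0.99. The exception was H2-Aa, an alpha chain, which read 10.03, 10.00 and 10.11 with UR, against 8.69, 8.56 and 8.55 with the HFD and 7.96, 7.87 and 8.04 with the ND, a rise of 2.73-fold on its only kept probe (adjusted p = 3.78e-09).

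The class II genes share promoter elements, among them the Y box, an inverted CCAAT element bound by the factor NF-Y. Promoters, as windows of 300 bases around the start, were taken from RefSeq, GRCm38.p6, which matched 8 of the 13 genes. The letters TGATTGG, searched on both strands, are in 4 of these 8 (H2-Aa, H2-DMb1, H2-DMb2 and H2-Eb1) and in 7.82% of 32851 promoters of this length. A gene is counted if any of its promoters holds the letters, whereas the 7.82% counts single promoters, so that the shares are unlike. Shown are 2 members that fell and the 1 that rose, 5′ to 3′ on the gene's strand, with the Y box letters in capitals: counted from the start, their first letter is at position -61 in H2-Eb1 (chr17:34305617-34305916, plus strand), at -92 in H2-DMb2 (chr17:34144999-34145298, plus strand) and at -50 in H2-Aa (chr17:34287774-34288073, minus strand). A match is a description of the letters in this window.
H2-Eb1: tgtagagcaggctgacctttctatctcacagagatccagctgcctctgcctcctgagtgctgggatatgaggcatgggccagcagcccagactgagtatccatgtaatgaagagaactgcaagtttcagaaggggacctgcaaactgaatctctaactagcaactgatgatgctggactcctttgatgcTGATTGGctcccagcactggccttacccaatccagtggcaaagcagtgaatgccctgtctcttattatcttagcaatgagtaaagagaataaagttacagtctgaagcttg
H2-DMb2: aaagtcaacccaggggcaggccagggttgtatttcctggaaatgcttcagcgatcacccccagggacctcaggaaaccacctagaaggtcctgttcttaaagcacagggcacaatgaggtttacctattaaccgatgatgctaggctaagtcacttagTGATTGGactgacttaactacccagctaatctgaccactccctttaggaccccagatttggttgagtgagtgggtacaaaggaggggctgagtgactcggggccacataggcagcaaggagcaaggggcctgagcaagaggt
H2-Aa: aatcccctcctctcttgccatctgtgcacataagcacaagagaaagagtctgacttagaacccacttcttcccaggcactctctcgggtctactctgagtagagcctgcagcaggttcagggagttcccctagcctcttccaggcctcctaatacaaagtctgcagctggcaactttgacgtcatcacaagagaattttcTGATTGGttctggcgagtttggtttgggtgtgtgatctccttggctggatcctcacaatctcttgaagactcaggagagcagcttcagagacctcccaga

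**Figure D3:**
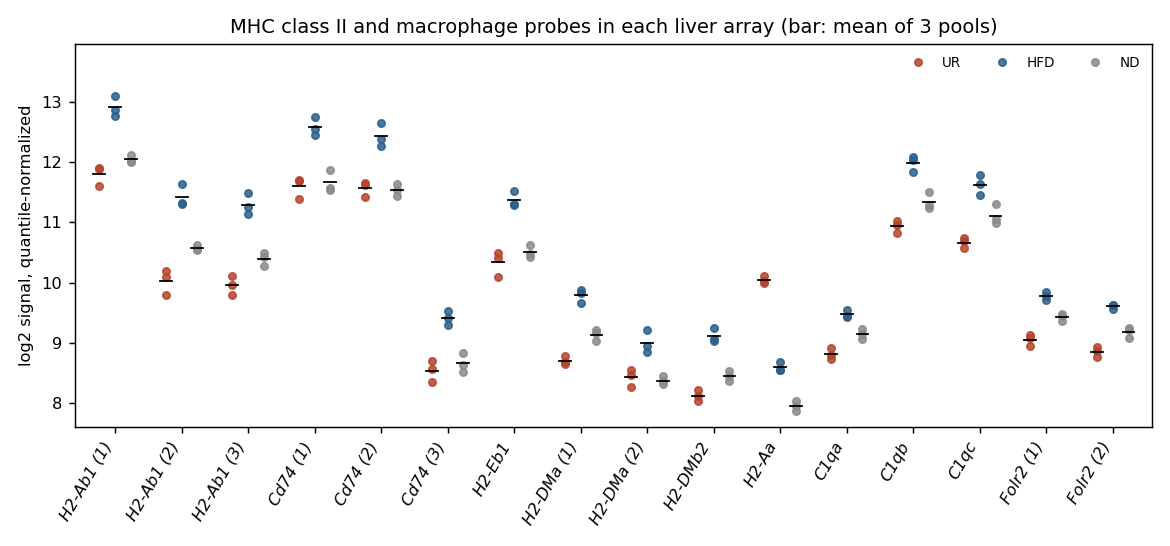
Quantile-normalized log2 signal of each of the 9 liver arrays (UR, HFD and ND, 3 pools each; bars are means) for probes of MHC class II and Kupffer cell genes, numbered within a gene by HFD signal. The UR arrays lie below the HFD arrays on each probe shown except H2-Aa, where they lie above (10.00 to 10.11 against 8.55 to 8.69), and these directions were the same with median scaling.

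Kupffer cell markers were split. Of 12 markers, 11 had a kept probe, with a median over 16 probes of -0.404. Of these, 6 fell (54.5%, against 36.3% of all genes) and 2 rose (18.2%, against 22.3%). A further 2 had probes called in both directions and 1 did not pass the test. The chains of complement C1q, which these macrophages secrete, fell: C1qb read 11.03, 10.82 and 10.97 in UR livers, against 11.83, 12.09 and 12.04 in HFD livers and 11.28, 11.50 and 11.24 in ND livers (fall of 2.07-fold), C1qc fell by 0.96 and C1qa by 0.66. Folr2, a folate receptor of resident macrophages, fell by 0.73 and 0.75 on its 2 probes. Clec4f, a lectin specific to Kupffer cells of the mouse, read 10.58, 10.84 and 10.99 with UR, against 11.79, 11.82 and 11.71 with the HFD and 11.45, 11.57 and 11.48 with the ND, a fall of 1.96-fold, while its other probe did not pass the test (-0.14, adjusted p = 0.0958). Vsig4, a complement receptor, fell by 0.66. In the other direction, Cd163, a haemoglobin scavenger receptor, read 8.62, 8.75 and 8.62 with UR, against 7.83 to 8.10 over the 3 HFD pools and 8.27 to 8.49 over the 3 ND pools, a rise of 1.61-fold, and Timd4, a receptor for dying cells, rose by 0.30. Adgre1, which encodes F4/80, rose by 1.12 and 0.40 on 2 probes and fell by 0.46 on its other probe. Csf1r, the receptor for macrophage colony-stimulating factor, rose by 0.45 and fell by 0.35. Marco, a scavenger receptor, was at 0.12 (adjusted p = 0.241). Of the markers of other blood cells named on the array, 3 of 8 neutrophil, 2 of 8 T and NK cell and 3 of 4 B and plasma cell markers had a kept probe. Of these, 1, 0 and 1 fell and 0 rose by limma. With median scaling 1 neutrophil marker rose, and 1 B cell marker rose and 1 fell. Among the 6 monocyte and macrophage markers named on the array 3 had a kept probe, 2 fell and Lyz2 moved both ways. Hepatocyte markers fell at a share near that of all genes: of 8 with a kept probe, 3 fell (37.5%, against 36.3%), 2 rose and 3 did not pass the test. With median scaling 4 of the 8 fell (50%, against 13.7%) and 2 rose (25%, against 40.3%). Of the Kupffer cell markers 54.5% fell and 27.3% rose with that scaling. Lower markers were thus not particular to macrophages with median scaling, and no such excess in hepatocyte markers was seen with quantile normalization. The part of cell numbers in these marker values was not tested.

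Genes of lipid-associated macrophages, a state described in obese adipose tissue and fatty liver, were mostly lower. Of 26 with a kept probe, 14 fell (53.8%, against 36.3% of all genes), 5 rose, 1 had both and 6 did not pass the test, with a median over 32 probes of -0.395. With median scaling 12 fell and 5 rose. Gpnmb and Lpl were among those that fell. Lgmn, a lysosomal protease, read 11.02, 11.05 and 11.11 in UR livers, against 11.87, 12.24 and 12.17 in HFD livers and 11.34, 11.54 and 11.21 in ND livers, and fell 2.04-fold. Trem2, a lipid receptor that marks the state, read 7.75, 7.72 and 8.12 in UR livers, against 8.40, 9.02 and 8.77 in HFD livers and 7.41, 7.76 and 7.47 in ND livers, and fell 1.82-fold. The tetraspanin Cd9 fell by 0.50. The UR and HFD pools did not overlap in these 3 genes. Against this, the lysosomal genes Npc2, a cholesterol carrier, and Ctsb, a cathepsin, rose by 1.24 and 0.92. Clec7a, a receptor for fungal glucans, fell by 0.98 on 1 probe and rose by 0.68 on the other.

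Chemokines and cytokine genes went in both directions. Of 22 chemokine and receptor genes with a kept probe, 10 fell (45.5%, against 36.3% of all genes), 3 rose (13.6%, against 22.3%) and 9 did not pass the test. With median scaling 7 fell (31.8%, against 13.7%) and 5 rose (22.7%, against 40.3%). Cxcl1, which draws neutrophils, read 10.17, 10.25 and 10.35 in UR livers, against 10.90, 11.90 and 11.16 in HFD livers and 8.98, 9.20 and 9.13 in ND livers, and fell 2.10-fold. The UR pools lay between both diets. Cxcl16, a membrane-bound chemokine, fell by 0.79 on 1 probe and was at -0.06 on the other (adjusted p = 0.397), the fractalkine receptor Cx3cr1 fell by 0.66, and Ccl4, which draws monocytes, fell by 0.55. A second Ccl4 probe, detected on 0 UR arrays, was at least 1.11-fold lower with UR, and was not called without UR pool 3 (-0.20). Of 45 interleukin and TNF family genes, 19 fell (42.2%), 8 rose (17.8%) and 6 had both, but with median scaling 12 fell (26.7%) and 16 rose (35.6%). Casp1, the protease that matures interleukin-1 beta, fell by 0.70, and Tnfrsf12a, the receptor for TWEAK, by 0.75. Il1rap, a subunit of the interleukin-1 receptor, rose by 1.83 on 1 of its 6 kept probes, while the other 5 lay between -0.19 and 0.08 and did not pass the test. Myd88, an adaptor of Toll-like receptors, rose by 0.90 on 1 probe and fell by 0.42 on the other, a fall that median scaling did not call (-0.12).

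Extracellular matrix genes were more often lower than higher with quantile normalization, a balance that median scaling did not keep in each list. Of 37 genes for collagens and matrix proteins with a kept probe, 24 fell (64.9%, against 36.3% of all genes), 3 rose, 3 had both and 7 did not pass the test, with a median over 57 probes of -0.27. With median scaling 10 fell (27%, against 13.7% of all genes) and 8 rose (21.6%, against 40.3%). Of 30 matrix-processing enzymes and inhibitors, 17 fell (56.7%) and 4 rose (13.3%), and 9 fell (30%) and 9 rose (30%) with median scaling. Of 22 matrix receptors, 11 fell (50%) and 1 rose (4.55%), and 5 fell (22.7%) and 3 rose (13.6%) with median scaling. Some genes fell with both scalings. Col1a1, the main chain of fibrillar collagen I, read 8.15, 8.03 and 8.64 in UR livers, against 8.83, 9.71 and 8.87 in HFD livers and 7.69, 7.55 and 7.68 in ND livers, and fell 1.82-fold (adjusted p = 0.00261). Col4a1, a chain of basement membrane collagen, read 10.11, 10.18 and 10.27 in UR livers, against 10.76, 11.14 and 10.94 in HFD livers and 10.14, 10.20 and 10.26 in ND livers, and fell 1.70-fold to the ND level. Its partner Col4a2 fell by 0.61. Not all collagens fell: Col3a1, a chain of fibrillar collagen III, and Col4a5 rose with both scalings, each on its only kept probe. Cd44, the hyaluronan receptor, fell by 0.90 and 0.63 on 2 probes, and on another, detected on 0 UR arrays, it was at least 1.13-fold lower. Adam11, a protease-like membrane protein, fell by 0.95 and 0.25, the second not called with median scaling (-0.10). In contrast, Adam9, a membrane metalloprotease, read 9.91, 9.94 and 9.77 with UR, against 8.04, 7.98 and 8.15 with the HFD, and rose 3.52-fold. Fn1, fibronectin, rose by 1.18 on 1 probe and fell by 0.46 on the other, a fall that median scaling did not call (-0.19). Sparc, a collagen-binding protein, fell by 1.08 and 0.49 and rose by 0.63 on its other probe; the fall of 0.49 was not called with median scaling (-0.21).

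Markers of the cells that line the sinusoids were also more often lower than higher with quantile normalization. Of 11 sinusoidal endothelial markers with a kept probe, 8 fell (72.7%, against 36.3% of all genes), 1 rose, 1 had both and 1 did not pass the test, with a median over 18 probes of -0.359. With median scaling 5 fell (45.5%) and 4 rose (36.4%), against 13.7% and 40.3% of all genes. Stab2, a hyaluronan scavenger receptor, read 10.59, 10.81 and 10.78 in UR livers, against 11.25, 11.35 and 11.22 in HFD livers and 10.76, 10.89 and 10.69 in ND livers, and fell 1.46-fold. Dnase1l3, a secreted nuclease, fell by 0.61, and Cdh5, the cadherin of endothelial junctions, by 0.74 and 0.36, the smaller fall not called with median scaling (-0.12). Lyve1, a hyaluronan receptor, read 8.88, 8.89 and 8.84 with UR, against 7.81, 8.03 and 8.20 with the HFD, and rose 1.81-fold. Of 9 stellate cell and fibroblast markers, 4 fell, 1 rose and 4 did not pass the test, while with median scaling 0 fell and 2 rose. Reln, a secreted glycoprotein of stellate cells, fell by 0.50 (-0.22 and not called with median scaling). Dcn, decorin, rose by 0.40 on 1 probe, a call lost when any of 4 pools was left out (0.34 without HFD pool 1, 0.38 without HFD pool 3, 0.37 without UR pool 2 and 0.31 without UR pool 3), and was at 0.08 and 0.02 on its other 2 (adjusted p = 0.397 and 0.782). The part of these cells in the matrix values was not tested.

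Sterol genes moved in small groups. Insig2, which holds the cholesterol sensor in the endoplasmic reticulum, fell on all 3 kept probes. The first read 13.31, 12.83 and 12.82 in UR livers, against 14.27, 14.26 and 14.17 in HFD livers and 14.59, 14.26 and 14.49 in ND livers, a fall of 2.37-fold, and the other 2 fell by 0.91 and 1.05. Its paralogue Insig1 rose by 1.81 on 1 probe, with 9.26, 9.80 and 9.72 in UR livers, against 7.84, 7.76 and 7.76 in HFD livers. The other 2 Insig1 probes, at -0.03 and 0.16, did not pass the test (adjusted p = 0.926 and 0.551). Of 12 cholesterol synthesis genes with a kept probe, 5 rose (41.7%) and 0 fell by the limma test, against 22.3% and 36.3% of all genes, and with median scaling 6 rose (50%) and 0 fell, against 40.3% and 13.7%. Of 12 genes of sterol sensing, LDL uptake and sterol export, 4 rose (33.3%), 7 fell (58.3%) and 1 had both. Under median scaling 5 were up (41.7%) and 4 down (33.3%). Tm7sf2, a sterol reductase, read 8.69, 8.61 and 8.27 in UR livers, against 8.03, 7.92 and 7.92 in HFD livers and 8.87, 8.56 and 8.80 in ND livers, and rose by 0.57. Msmo1, a methyl sterol oxidase, rose by 0.53, a call lost without UR pool 2 (0.43). Abcg5, a subunit of the transporter that secretes sterols into bile, read 13.48, 13.66 and 13.81 in UR livers, against 14.32, 14.35 and 14.27 in HFD livers and 12.79, 12.80 and 12.72 in ND livers, and fell 1.59-fold. Bile acid genes fell by small amounts: of 13 with a kept probe 8 fell (61.5%, against 36.3% of all genes), 1 rose and 4 did not pass the test. With median scaling 1 fell (7.69%, against 13.7%), 3 rose (23.1%, against 40.3%) and 1 had both. Cyp8b1, the sterol 12-alpha hydroxylase, read 15.28, 14.99 and 14.92 with UR, against 15.47, 15.46 and 15.54 with the HFD and 15.95, 15.95 and 15.91 with the ND, and fell by 0.43, which median scaling did not call (-0.21). Cyp27a1, the sterol 27-hydroxylase, fell by 0.44 and 0.35 on 2 of 3 probes and was at 0.08 on the last (adjusted p = 0.224), and the fall of 0.35 was not called with median scaling (-0.10). Baat, which joins bile acids to taurine, read 12.56, 12.67 and 12.50 with UR, against 10.55, 10.39 and 10.56 with the HFD, and rose 4.21-fold.

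Amino acid enzymes went in both directions. Of 33 genes of the urea cycle and hepatic amino acid breakdown with a kept probe, 18 fell (54.5%, against 36.3% of all genes) and 8 rose (24.2%, against 22.3%). A further 2 had both and 5 did not pass the test. With median scaling 7 fell (21.2%, against 13.7%) and 12 rose (36.4%, against 40.3%). Gldc, of the glycine cleavage system, fell on both probes, and the first read 13.58, 13.28 and 13.62 in UR livers, against 14.36, 14.41 and 14.25 in HFD livers and 14.41, 14.43 and 14.42 in ND livers (fall of 1.79-fold; the other probe 2.10-fold). Slc25a15, the mitochondrial ornithine carrier, fell on both probes, by 0.69 and 0.89. Asl, the argininosuccinate lyase of the urea cycle, which was chosen after its values were seen, fell by 0.93 and 1.01. Its first probe read 10.89, 10.84 and 10.88 in UR livers, against 11.79, 11.68 and 11.94 in HFD livers and 12.38, 12.84 and 12.24 in ND livers, so that the UR pools lay below both diets. These 3 genes fell with both scalings. Otc, the ornithine transcarbamylase of the same cycle, rose 2.97-fold on its only kept probe, with 9.63, 9.82 and 9.69 in UR livers, against 8.31, 8.03 and 8.08 in HFD livers. Tdo2, which opens the ring of tryptophan, rose by 1.03. Branched-chain amino acid breakdown rose more often than it fell: 12 of 20 genes rose (60%, against 22.3% of all genes), 5 fell and 3 were not called, with 14 up (70%, against 40.3%) and 0 down by limma under median scaling. Acadsb, an acyl-CoA dehydrogenase, read 11.25, 11.41 and 11.30 with UR, against 9.33, 9.08 and 9.38 with the HFD, and rose 4.16-fold. Aldh6a1, of valine breakdown, read 12.91, 13.06 and 13.24 with UR, against 11.23, 10.79 and 10.95 with the HFD, and rose 4.22-fold, and Dld, a shared dehydrogenase subunit, rose 3.06-fold. Pccb, a propionyl-CoA carboxylase subunit, rose by 1.24 on 1 probe and was at -0.12 on the other (adjusted p = 0.14).

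**Figure D4:**
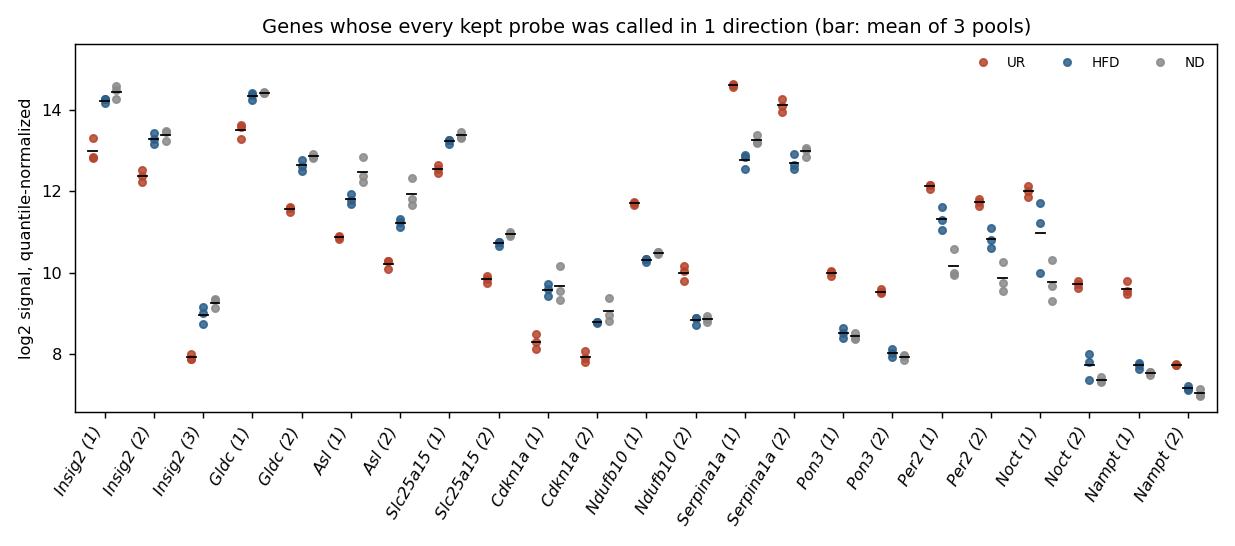
Quantile-normalized log2 signal on the 9 liver arrays (UR, HFD and ND, 3 pools each; bars are means) for genes with several kept probes that were each called in 1 direction, numbered within a gene by HFD signal. Insig2, Gldc, Asl, Slc25a15 and Cdkn1a lie lower with UR than with the HFD and the other 6 genes higher, with both scalings, and 1 HFD pool of Noct, at 9.98, lies apart from the other 2.

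Enzymes that modify steroids and drugs rose in part. Of 33 cytochrome P450 genes of families 1 to 3 with a kept probe, 14 rose (42.4%), 12 fell (36.4%), 1 had both and 6 did not pass the test. Of all genes 22.3% rose and 36.3% fell, so that the share that fell was near that of all genes. With median scaling 18 rose (54.5%) and 7 fell (21.2%), against 40.3% and 13.7% of all genes. Cyp2c50, an arachidonic acid epoxygenase, read 15.10, 15.12 and 15.18 in UR livers, against 14.41, 14.10 and 14.34 in HFD livers and 13.81, 14.11 and 13.83 in ND livers, and rose 1.80-fold. On its other 2 probes, detected on 0 HFD arrays, it was at least 2.12-fold and at least 1.12-fold higher, the smaller of which was not called without UR pool 2 (0.18) or UR pool 3 (0.19). Cyp2d13 read 10.18, 10.24 and 10.29 with UR, against 8.78, 8.60 and 8.75 with the HFD, and rose 2.88-fold. Of 16 hydroxysteroid dehydrogenase genes, 9 rose (56.2%) and 2 fell (12.5%), with a median over 25 probes of 0.322. With median scaling 9 rose (56.2%, against 40.3% of all genes) and 0 fell. Besides Hsd17b6, Hsd3b2, a 3-beta hydroxysteroid dehydrogenase, rose by 0.42 to 0.76 on 4 of its 5 kept probes, and on the other, detected on 0 HFD arrays, it was at least 1.2-fold higher. Some members of these families are near-identical in sequence, and signal between them may be shared. Of 28 glucuronosyl-, sulfo- and methyltransferase genes, 8 rose (28.6%), 9 fell (32.1%) and 2 had both. With median scaling 15 rose (53.6%) and 2 fell (7.14%).

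Most clock genes rose. The circadian clock is a loop in which the activators CLOCK and BMAL1 (Arntl) drive the Per and Cry genes, whose proteins shut them off, along with output factors such as Dbp and Tef. Of 18 clock genes with a kept probe, 12 rose (66.7%, against 22.3% of all genes), 4 fell (22.2%, against 36.3%) and 2 were not called, with a median over 32 probes of 0.533. With median scaling 13 rose (72.2%, against 40.3%) and 3 fell. Of the activators, Clock fell by 0.81 and 0.29 (the second not called without HFD pool 1, at -0.20, or UR pool 1, at -0.25), and its first probe read 10.44, 10.22 and 10.23 in UR livers, against 11.07, 11.06 and 11.19 in HFD livers and 11.44, 11.41 and 11.33 in ND livers. Arntl was at -0.19 and its groups overlapped (adjusted p = 0.0963). Among the repressors, Per2 rose on both probes, the first reading 12.16, 12.05 and 12.15 with UR, against 11.29, 11.06 and 11.62 with the HFD and 9.99, 10.58 and 9.95 with the ND (1.74-fold), the second 1.86-fold. Per1 rose by 0.81 on 1 probe, with 10.38, 10.16 and 10.10 in UR livers, against 9.53, 8.78 and 9.91 in HFD livers, a call that rested on single pools: without HFD pool 2 the value was 0.50, without UR pool 1 0.72 and without UR pool 2 0.83, each not called. Its other probe, at 0.48, did not pass the test (adjusted p = 0.0685). Per3 rose by 0.54 on 1 probe and was at 0.07 on the other (adjusted p = 0.29). Ciart, a repressor of the activators, rose on 3 probes, by 1.25, 1.24 and 0.84, and Bhlhe40, another repressor, rose 2.72-fold. Of the nuclear receptors that time Arntl, Nr1d2 read 10.28, 10.35 and 10.24 with UR, against 8.66, 8.50 and 8.54 with the HFD and 8.50, 8.28 and 8.37 with the ND, and rose 3.30-fold, while Nr1d1 fell by 0.33, which median scaling did not call (-0.14). Of the outputs, Dbp read 13.98, 14.07 and 14.05 with UR, against 13.11, 13.22 and 13.13 with the HFD and 12.09, 11.95 and 10.96 with the ND, and rose 1.84-fold. Tef rose 2.08-fold on 1 probe and was at 0.16 on the other (adjusted p = 0.0525). Noct, a phosphatase of nicotinamide dinucleotides, read 9.64, 9.79 and 9.72 with UR, against 7.80, 7.37 and 8.02 with the HFD, a rise of 3.96-fold. Its other probe rose by 1.02, with an HFD pool at 9.98 beside 11.23 and 11.72, and was not called without HFD pool 2 (0.53), UR pool 1 (0.96) or UR pool 2 (1.02). Nampt, which makes the precursor of NAD, rose 3.69-fold, and its other probe, detected on 0 HFD arrays, was at least 1.14-fold higher. The hour at which each group was sampled is given in none of the sources used here, and its part was not tested.

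Promoters of 15 of the 18 clock genes were in the RefSeq table. As for the Y box, a gene is counted if any of its promoters holds a motif, whereas the percentages are of single promoters. The E-box letters CACGTG, the site of CLOCK and BMAL1, searched on both strands, are in 3 of them (Ciart, Per1 and Tef) and in 7.15% of 32851 promoters, and the D-box letters TTATGTAA, the site of DBP and TEF, in 1 of them (Per3) and in 0.938% of promoters. Per1 and Per3 are shown 5′ to 3′ with those letters in capitals: the E-box of Per1 (chr11:69098699-69098998, plus strand) begins at position -166 from the start, and the first of the 2 D-boxes of Per3 (chr4:151044616-151044915, minus strand) begins at position -205.
Per1: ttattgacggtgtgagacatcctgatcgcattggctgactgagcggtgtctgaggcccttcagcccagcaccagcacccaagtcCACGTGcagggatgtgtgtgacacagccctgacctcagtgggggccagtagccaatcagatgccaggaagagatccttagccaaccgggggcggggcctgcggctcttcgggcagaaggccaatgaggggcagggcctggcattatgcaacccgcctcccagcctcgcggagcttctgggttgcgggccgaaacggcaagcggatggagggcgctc
Per3: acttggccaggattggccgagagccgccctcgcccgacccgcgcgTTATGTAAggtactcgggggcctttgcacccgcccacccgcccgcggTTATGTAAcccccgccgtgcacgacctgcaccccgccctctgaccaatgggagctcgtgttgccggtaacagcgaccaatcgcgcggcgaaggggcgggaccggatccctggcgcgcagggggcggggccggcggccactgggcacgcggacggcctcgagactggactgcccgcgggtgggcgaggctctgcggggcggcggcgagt

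Mitochondrial fuel genes rose on some probes and not on others. Of 46 genes of fatty acid oxidation and PPAR-alpha targets with a kept probe, 19 rose (41.3%, against 22.3% of all genes) and 9 fell (19.6%, against 36.3%). A further 6 had both and 12 did not pass the test. Under median scaling 26 were up (56.5%, against 40.3%) and 5 down (10.9%, against 13.7%). Hadhb, a subunit of the trifunctional enzyme of beta-oxidation, read 13.25, 13.12 and 12.87 in UR livers, against 11.25, 11.01 and 11.27 in HFD livers, and rose 3.74-fold. Etfa, which takes electrons from acyl-CoA dehydrogenases, rose by 1.48 and 1.39 on 2 probes and fell by 0.24 on its other probe, which median scaling did not call (-0.03). Cpt1a, the carnitine transferase that admits fatty acids to mitochondria, read 7.75, 7.76 and 7.71 with UR, was detected on 0 HFD arrays, and was at least 1.14-fold higher. Of 23 citric acid cycle and pyruvate genes, 10 rose (43.5%), 4 fell (17.4%) and 3 had both, with 16 up (69.6%) and 0 down by limma under median scaling. Of 33 genes of respiratory complex I, 12 rose (36.4%, against 22.3% of all genes), 8 fell and 1 had both, with 22 up (66.7%, against 40.3%) and 0 down under median scaling. Ndufb10 rose on both probes, by 1.40 and 1.17, and read 11.67, 11.71 and 11.73 with UR, against 10.33, 10.26 and 10.33 with the HFD on the first. Ndufs4 rose on 3 probes, by 1.14, 1.36 and 1.99, and was at -0.08 on its other probe (adjusted p = 0.233). Of 3 genes of complex II, Sdhd rose 3.89-fold on its only kept probe, Sdhb rose by 0.43 and 0.51, and Sdhc fell by 0.21, which turned to 0.07 with median scaling. Complex III had 1 gene up (14.3%) and 2 down (28.6%) of 7, with 1 up and 0 down by limma under median scaling. Complex V had 5 up (31.2%), 4 down (25%) and 1 with both of 16, against 22.3% up and 36.3% down of all genes. Under median scaling complex V had 9 up (56.2%, against 40.3%) and 1 down (6.25%, against 13.7%). Of 10 genes of complex IV, 3 were called up (30%), 3 down (30%) and 4 in neither direction, with 7 up (70%) and 1 down (10%) under median scaling. Cox7a2 of that complex rose 3.90-fold, while Cox7a1 fell by 0.51. Mdh1, the cytosolic malate dehydrogenase, chosen after its values were seen, rose on both probes, by 1.27 and 1.07.

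Genes of fat synthesis and storage had no common direction. Of 28 lipogenic genes 6 rose (21.4%), 10 fell (35.7%) and 1 had both, near the 22.3% and 36.3% of all genes. Of 19 droplet genes 6 rose (31.6%), 5 fell (26.3%) and 1 had both. With median scaling 10 lipogenic genes rose (35.7%) and 6 fell (21.4%), and 7 droplet genes rose (36.8%) and 3 fell (15.8%), against 40.3% and 13.7% of all genes. Elovl2, which lengthens polyunsaturated fatty acids, read 12.16, 11.80 and 11.76 in UR livers, against 10.24, 9.80 and 9.89 in HFD livers and 11.05, 10.81 and 10.98 in ND livers, and rose 3.81-fold. Me1, malic enzyme, rose 2.45-fold. Plin5, a droplet coat that tethers mitochondria, fell on both probes, by 0.73 and 0.46. Pparg, a nuclear receptor of fat storage, was at -0.08 on 1 probe (adjusted p = 0.488), and on the other, detected on 0 HFD arrays, it was at least 1.42-fold higher. Pdk4, the kinase that blocks pyruvate oxidation, read 8.64, 8.85 and 8.83 with UR, against 9.94, 9.84 and 9.65 with the HFD and 11.50, 11.83 and 11.92 with the ND, and fell 2.05-fold, further from the ND level. Of 20 insulin and IGF signalling genes, 12 fell (60%, against 36.3% of all genes), 5 rose and 1 had both, with 5 down (25%, against 13.7%) and 7 up (35%, against 40.3%) under median scaling. Igf1, the growth factor of hepatic origin, fell by 0.56 on 1 probe and did not pass the test on the other (adjusted p = 0.994), which rose by 0.25 with median scaling.

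Plasma protein genes were mixed, with many genes called in both directions. Of 41 complement and coagulation genes with a kept probe, 10 rose (24.4%, against 22.3% of all genes), 9 fell (22%, against 36.3%), 10 had both and 12 did not pass the test. Only genes with several kept probes can have both, which were 23 of the 41, against 3566 of all 9784 genes. Thus 10 of these 23 had both, against 15.8% of the 3566. With median scaling 20 rose (48.8%, against 40.3%), 3 fell (7.32%, against 13.7%) and 5 had both. Cfb, factor B of complement, read 11.73, 12.03 and 12.08 in UR livers, against 9.99, 9.70 and 9.94 in HFD livers, and rose 4.19-fold, and C8a, of the membrane attack complex, rose 2.81-fold. Plg, plasminogen, had 4 kept probes, with a rise of 0.95 and falls of 0.96, 0.37 and 0.19, of which the last turned to 0.05 with median scaling and was not called without HFD pool 1 (-0.16), HFD pool 3 (-0.19) or UR pool 1 (-0.14). Of 27 acute-phase genes, 4 rose (14.8%, against 22.3% of all genes), 9 fell (33.3%, against 36.3%) and 2 had both. With median scaling 8 rose (29.6%, against 40.3%), 7 fell (25.9%, against 13.7%) and 1 had both, so that the place of this list beside all genes depended on the scaling. Serpina1a, an alpha-1 antitrypsin, rose on both probes, the first reading 14.61, 14.64 and 14.56 with UR, against 12.90, 12.54 and 12.84 with the HFD (3.58-fold), the second 2.65-fold. Saa1, serum amyloid A, read 12.50, 12.32 and 12.51 with UR, against 13.14, 13.45 and 13.72 with the HFD and 10.90, 11.69 and 10.54 with the ND, and fell 1.99-fold, while its other probe did not pass the test (-0.33, adjusted p = 0.172). Orm2, an acid glycoprotein, fell by 0.65. Of 26 heat shock genes, 10 rose (38.5%, against 22.3% of all genes), 4 fell (15.4%, against 36.3%) and 1 had both. With median scaling 12 rose (46.2%, against 40.3%) and 2 fell (7.69%, against 13.7%). Hspe1, the co-chaperonin of mitochondria, rose 4.11-fold. Further genes with several probes that all rose, chosen after their values were seen, were Pon3, a paraoxonase carried on high-density lipoprotein (1.48 and 1.50), Dnajb9, a chaperone of the endoplasmic reticulum (1.51 and 1.86), and Upp2, a uridine phosphorylase of the liver (1.21, 1.84, 1.25 and 1.16).

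**Figure D5:**
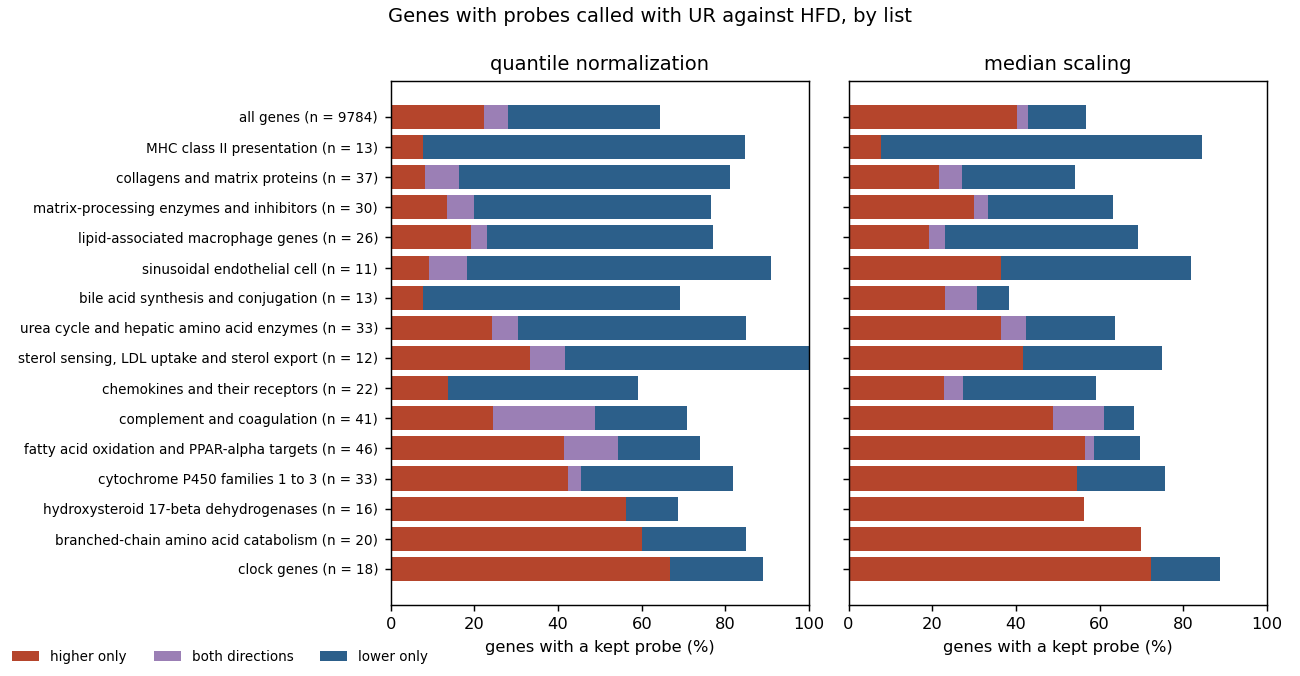
Share of the genes of each list (n: genes with a kept probe) whose probes were called higher only, in both directions or lower only with UR against the HFD, with quantile normalization (left) and median scaling (right). Of all genes 22.3% were higher only and 36.3% lower only with quantile normalization, against 40.3% and 13.7% with median scaling, while the MHC class II list stays at 10 of 13 lower and the clock list at 12 and 13 of 18 higher.

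The 51 genes that the study's text names for the liver and that had a kept probe, picked there on these same samples and so no independent evidence, held 16 that rose, 31 that fell and 4 with both, and 16, 27 and 5 with median scaling.

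The effect of UR in the liver was set against its effect in WAT and gastrocnemius muscle in 1 limma model over the 27 arrays. The effect differed between liver and WAT for 7940 of 15800 probes kept in both tissues (50.3%), and between liver and muscle for 6050 of 13982 (43.3%). With UR, limma called 1935 increases and 1668 decreases in muscle, and 665 increases and 804 decreases in WAT. Of the probes up by more than 2-fold in the liver, 555 were kept in WAT, with a median log2 fold change there of -0.132 and 18.6% above 0. In muscle 542 were kept, with a median of 0.28 and 95.6% above 0. These probes were picked by their liver values, and the share above 0 over all shared probes was not computed. Across all shared probes, as a description of arrays of different tissues, the log2 fold changes of the liver correlated with those of WAT at r = -0.224 and with those of muscle at r = 0.427. Probes are not independent replicates. Some of the leading genes differed from both tissues: Idh2 was at 2.17 in the liver, against -0.17 in WAT and 0.49 in muscle, Gpnmb at -2.22, against 0.31 and -0.05, and Lpl at -1.71, against -0.01 and 0.01 (adjusted p of the differences 5.13e-06 or lower). Pgrmc1 was at 2.28 in the liver, against -0.16 in WAT and 0.30 in muscle, and Rbp4 at 2.15, against -0.64 in WAT. The 3 H2-Ab1 probes were at -1.12, -1.34 and -1.39 in the liver, against 0.11, 0.13 and 0.21 in WAT and 0.42, 0.16 and 0.08 in muscle, and each difference passed the test. Cd74 was at -0.98, -0.88 and -0.87 in the liver, against 0.06, 0.08 and 0.01 in WAT, and 2 of its probes, kept in muscle, were at 0.45 and 0.46 there. Insig2 was at -1.24 and -0.91 in the liver on the 2 probes kept in the other tissues, against -0.15 and -0.20 in WAT and -0.13 and 0.08 in muscle. Per2 was at 0.80 and 0.89 in the liver, 0.35 and 0.25 in WAT and 1.43 and 1.36 in muscle, and Dbp was at 0.88, 1.53 and 2.03, smaller in the liver than in muscle by 1.16 (adjusted p = 0.000434). Per1 was at 0.81 and 0.48 in the liver, 0.37 and 0.45 in WAT and 0.87 and 0.67 in muscle, and the liver did not differ from WAT (differences 0.44 and 0.02, standard errors 0.35 and 0.27) or from muscle (-0.06 and -0.19, standard errors 0.35 and 0.27) by the test. Nr1d2 rose more in the liver than in both, at 1.72, 0.61 and 0.85. Bhlhe40 was at 1.44 in the liver and 1.26 in muscle, a difference that did not pass the test (0.19, standard error 0.20), and at 0.12 in WAT.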

How the data were processed

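RNA from pooled livers, white adipose tissue and muscle was hybridised to Illumina MouseWG-6 v2 BeadChips, 3 arrays per diet and tissue. The deposited table holds the authors' non-normalized signal intensity and a detection p-value for each of 45281 probes, and the authors' value table holds deposited log2 values after quantile normalization. In that table only the 9 liver columns were used, as an alternative, and 18 columns of per-sample values were left out, since its muscle columns repeat those of adipose tissue. Intensities were taken to log2 and quantile-normalized within a tissue, without background correction. Probes detected (p under 0.05) on all 3 arrays of a liver group were fitted with limma 3.58.1 in R 4.3.3 (lmFit and eBayes with an intensity trend, 6 residual degrees of freedom) over the 9 liver arrays, so that ND arrays share in the estimate of the spread, and the p-values of UR against HFD were adjusted by Benjamini-Hochberg over 17518 probes. Tissue differences came from 1 model over 27 arrays. On simulated data for UR against HFD over 17518 probes, 82 of 100 probes changed by 0.5 and 99 of 100 changed by 1 on the log2 scale were recovered, with 13 false calls. The simulated arrays had independent noise, few changed probes and no difference in brightness, and were not normalized again. The simulation therefore checks the code and does not give the rate of false calls in the real arrays. Symbols came from the platform annotation, which lists 34903 probes, 34885 with 1 symbol, 18 with several, and leaves 10378 unlisted. A probe not detected on any array of a group has only a bound there, printed as "at least". Genes could be named if among the 15 largest changes per direction, or among the 6 of smallest p or the opposed members of a list. Genes that the study names for the liver or with the 10 widest probe disagreements could be named too, with each of their kept probes. Not all genes that met this rule are named. Arntl, Asl, Cd9, Ciart, Cox7a1, Cpt1a, H2-DMb1, Marco, Mdh1, Nr1d1, Pon3, Sdhc, Timd4, Trem2, Upp2 and Vsig4 fall outside this rule and were chosen after their values were seen. Col3a1, Col4a5 and Dnajb9 were also chosen after their values were seen. The genes and lists were chosen with earlier results of these data known. Arrays carry no read depth, and their number limits the precision. No source used here says which chip held each array. Alternatives covered normalization, background correction, the probe filter, thresholds, tests, arrays left out and the replicate number as a block. Same-numbered pools did not deviate together (correlations 0.0126, -0.114 and -0.154), so that the main test did not use the numbers as pairs. Only the rank products and the replicate block, both alternatives, used them.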

Additional observations from a re-analysis of the deposited data

Results flagged for a closer look

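These results were picked out because the effect of UR in the liver differed from its effect in another tissue by the limma test of the difference. That held for 7940 probes against WAT and 6050 probes against muscle. Among increases, the liver minus WAT difference was 2.34 log2 units for Idh2, 2.794 for Rbp4, 2.437 for Pgrmc1, 1.113 for Nr1d2, 1.329 for Bhlhe40 and 0.6418 for 1 probe of Per2, and the liver minus muscle difference was 1.678 for Idh2, 1.976 for Pgrmc1 and 0.8778 for Nr1d2. Among decreases, the liver minus WAT difference was -1.697 for Lpl, -2.524 for Gpnmb, -0.7099 and -1.09 for 2 probes of Insig2, -1.224, -1.474 and -1.601 for 3 probes of H2-Ab1, and -0.9548, -0.8824 and -1.044 for 3 probes of Cd74. The liver minus muscle difference was -1.717 for Lpl, -2.166 for Gpnmb, -0.9967 and -1.114 for Insig2, -1.534, -1.502 and -1.47 for H2-Ab1, and -1.334 and -1.433 for Cd74. Dbp rose less in the liver than in WAT (-0.6528) and muscle (-1.158), and the other probe of Per2 rose less than in muscle (-0.6262).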

How the results depend on the processing

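With arrays scaled to a common median, 6166 probes rose, 2189 fell and 261 genes had opposite calls, and without normalization 8653, 1110 and 138. Cyclic loess gave 5020 increases and 3722 decreases, probes detected on all 6 arrays gave 375 genes with opposite calls, and rank products over same-numbered pools gave 689 probes (437 up, 252 down) and 1 gene with opposite calls. At an unadjusted p under 0.05 and a log2 change over 0.5, 2631 probes were called (1757 up, 874 down), and at an adjusted p under 0.05 and a log2 change of at least 1, 669 (620 up, 49 down). With 1 pool left out, 8124 to 9853 probes were called, 3365 to 3902 up and 4759 to 5951 down, 431 to 582 genes had opposite calls, and the liver differed from WAT on 7351 to 7685 probes and from muscle on 5384 to 5823. With the replicate number as a block, 9467 probes were called (3761 up, 5706 down), with 544 genes called both ways and tissue differences on 7916 (WAT) and 5920 (muscle) probes. Of 236 probes of genes named in the text, direction changed with median scaling for Eef1b2 (0.005244), Igf1 (0.254), Plg (0.04869), Sdhc (0.0669) and Lamp2 (0.06788), and without normalization for Pparg (0.302), Eef1b2 (0.1163), Rnf11 (0.08688), Ndufs4 (0.3031), Ddc (0.08419), Adam11 (0.007689), Cyp27a1 (0.01332), Etfa (0.07693), Il1rap (0.2952), Igf1 (0.3651), Pccb (0.2767), Plg (0.1598), Sdhc (0.178) and Lamp2 (0.179 and 0.2796). Of the 208 that were called, 10 lost the call without 1 of the pools and 96 lost it with rank products. The probes of Col3a1 and Col4a5 are not in these counts. The causes were not tested.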
